A study of Mus musculus with 6 samples.

Results

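The genes described here handle fatty acids and the lipid droplets that store them. They form a list of symbols, drawn up with earlier results of these data known, and all 37 symbols on the list were found among the 28262 genes of the deposited table. Of the 37 genes, 36 had enough reads to be tested, and *Fabp4* did not. The RNA came from Sertoli cells, the somatic cells that support spermatogenesis inside the seminiferous tubule, isolated from C57BL/6 mice at 20 days of age and cultured at 34 °C with 5% CO2. The medium of both genotypes held insulin, EGF and transferrin, and the labels give no other treatment. Unattached germ cells were washed off the dishes. The control cells carried floxed *Pa1* alleles and no deletion (*Pa1*F/F, 3 libraries, titled WT). In the knockout cells (*Amh-pa1*-/-, 3 libraries, titled KO) the floxed alleles are deleted by a Cre recombinase under the *Amh* promoter, which is active in Sertoli cells, so other cells that stay in the preparation keep *Pa1*. PA1 is a subunit of the MLL3/4 histone methyltransferase complexes, and the comparison asks which transcripts differ once it is gone. The methods of the study call the samples biological replicates, but the sources used here do not say how many animals went into a library or whether libraries share animals, so the p-values measure only the spread between these libraries.

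Fatty acids are built in the cytosol from acetyl-CoA, then desaturated and elongated, and are joined to glycerol to form phospholipids and the triglycerides of lipid droplets. To be burnt they are released by lipases, activated to acyl-CoA, carried into mitochondria by the carnitine shuttle and cut down by beta-oxidation. Sertoli cells are known to engulf dying germ cells and residual bodies, to store the lipid in droplets and to oxidize fatty acids for their own energy while they export lactate to germ cells.

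Total counts lay between 13203757 and 16231443 per library, and the 37 genes held between 0.711% and 0.862% of them. The libraries were unevenly spaced. The counts of *Pa1*F/F replicates 1 and 3 and those of *Amh-pa1*-/- replicates 1 and 2 were close (chi-square per degree of freedom 2.46 and 1.74), against 22.7 to 37.2 for the other pairs of a genotype. Sertoli cell markers were abundant in every library, with a summed level from 17006 to 17218 CPM (counts scaled to library size) in *Pa1*F/F cells and from 10647 to 13282 CPM in *Amh-pa1*-/- cells. *Clu*, which was lower, made up most of that sum, while *Rhox5* and *Tsx* had at most 16 and 12 counts. Of 14 tested Sertoli markers 5 were lower and 1 was higher. The adipocyte marker *Adipoq* had at most 1 count in any library. Of the 37 genes 13 overlap a gene on the other strand, and whether the counting used strand is not given in the sources used here.

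In *Amh-pa1*-/- cells 9 of the 36 tested genes were lower and 8 were higher than in *Pa1*F/F cells, by edgeR's quasi-likelihood test at an adjusted p under 0.05. Over all 14919 tested genes 35.3% passed this test, 17.1% lower and 18.2% higher, as compared with 47.2% of the fatty acid genes. The median absolute log2 fold change of the 36 genes was 0.31, and that of all tested genes was 0.30, so the list as a whole stood near the background. When a log2 fold change of 1 or more in size was also required, as the study did, *Gpam* and *Fabp3* were lower and *Acacb* and *Mgll* were higher, 4 of 36 genes, while 12% of all tested genes passed (6.56% lower and 5.44% higher). Of the 8 steps into which the genes were grouped, 5 held both lower and higher genes, and in no step did every gene pass in 1 direction.

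**Figure D1:**
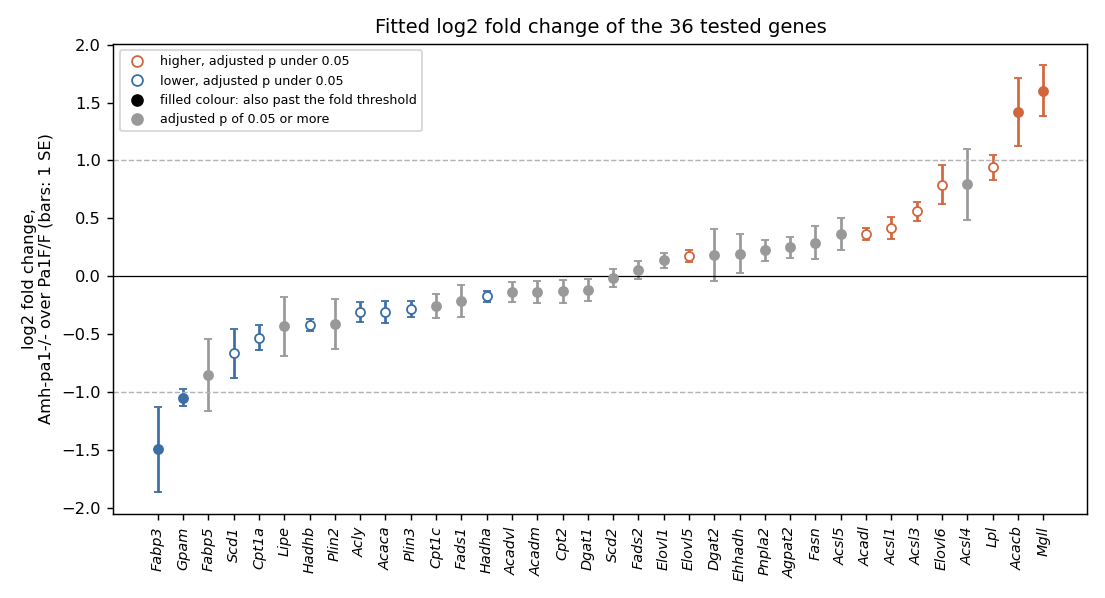
Fitted log2 fold changes of *Amh-pa1*-/- over *Pa1*F/F cells (vertical axis, bars 1 standard error, 3 libraries per genotype) for the 36 tested genes in order of size, with dashed lines at -1 and 1. Blue and orange circles mark the 9 lower and 8 higher genes at an adjusted p under 0.05, filled where past a dashed line (*Fabp3*, *Gpam*, *Acacb* and *Mgll*), and grey circles mark the other 19.

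For all 17 genes that passed, the 3 *Amh-pa1*-/- libraries lay wholly above or wholly below the 3 *Pa1*F/F libraries, as they did for 5 of the 19 genes that did not pass. That is 22 of 36 genes, against 52.4% of all tested genes. An exact two-sided permutation test of 3 against 3 libraries cannot give a p below 0.1. *Amh-pa1*-/- replicate 3 differed from replicates 1 and 2 by 1.5-fold or more for 6 of the 36 genes (higher for *Fabp3* and *Fabp5*, lower for *Scd1*, *Acsl4*, *Plin2* and *Lipe*), whereas *Pa1*F/F replicate 2 differed so from replicates 1 and 3 for *Acacb* alone. Without *Amh-pa1*-/- replicate 3, 10 genes were lower and 12 were higher, while 6617 of all 15354 genes tested in that fit passed. Without any 1 of the other 5 libraries, 3 to 5 were lower and 5 to 7 were higher (3 and 5 without *Pa1*F/F replicate 1). Over all genes 3450 to 4403 passed in those fits, of 15155 to 15328 tested (3450 of 15186 without *Pa1*F/F replicate 1). With each close pair summed to 1 library, 1 gene (*Gpam*) was lower and 3 (*Mgll*, *Acsl3* and *Lpl*) were higher. In that fit 1382 of all 15966 tested genes passed, so the background moved with the setting too.

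**Figure D2:**
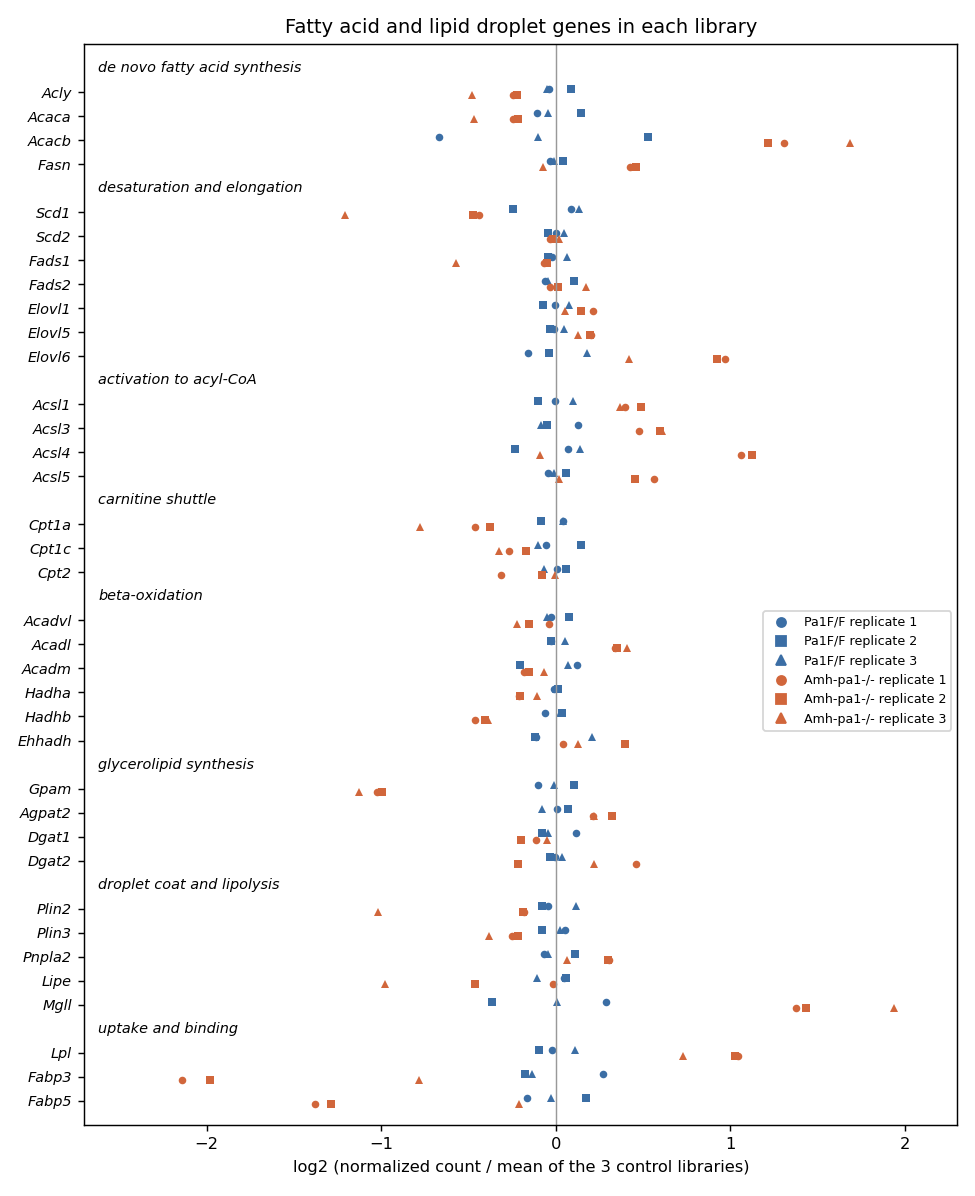
Every library for the 36 tested genes, grouped by step, as log2 of the normalized count over the mean of the 3 *Pa1*F/F libraries (horizontal axis). Blue marks are *Pa1*F/F and orange marks *Amh-pa1*-/- libraries, with circles, squares and triangles for replicates 1, 2 and 3. The orange triangle of *Acsl4* lies with the blue marks while the other two orange marks lie near 1, and the 3 orange marks of *Gpam* lie together near -1.

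Levels of different genes are compared per length, as FPKM computed here from the counts and the length of each gene's canonical transcript. The most abundant of the 36 genes by FPKM in *Pa1*F/F cells was *Scd2*, which encodes a stearoyl-CoA desaturase, at 394 ± 12.5 FPKM (SD, n = 3). *Lpl* (125 ± 8.95 FPKM) and *Acsl4* (122 ± 16.2 FPKM) came next and their control libraries overlapped. *Acly* followed at 101 ± 5.53 FPKM. At the other end stood *Lipe* (1.37 ± 0.0855 FPKM), *Acacb* (1.31 ± 0.538 FPKM) and *Dgat2* (0.833 ± 0.0206 FPKM). Of the 35 pairs of neighbours in this order, 24 had overlapping control libraries and could not be ranked beyond their spread. In *Amh-pa1*-/- cells *Scd2* stayed first at 391 ± 7.63 FPKM, and *Lpl* stood at 240.2 ± 28.8 FPKM.

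**Figure D3:**
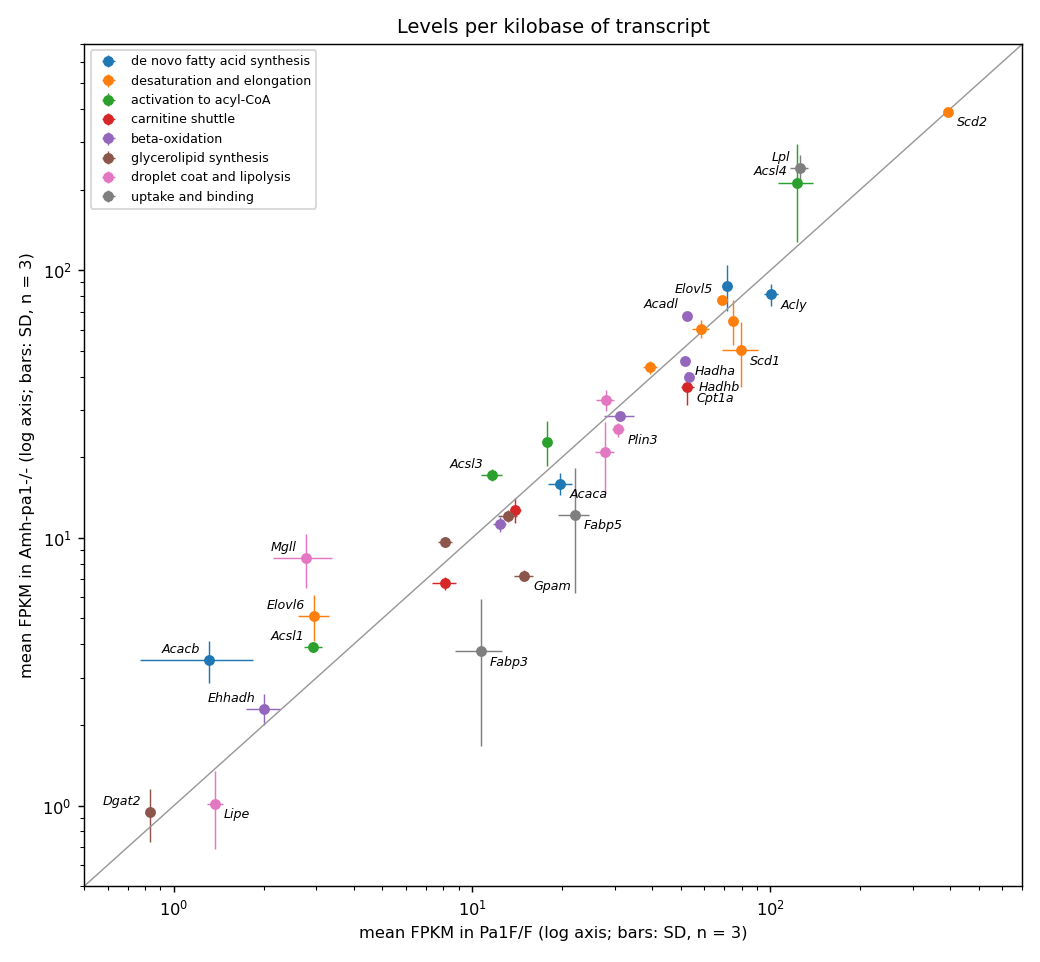
Mean level in *Amh-pa1*-/- cells (vertical) against that in *Pa1*F/F cells (horizontal), in FPKM on log axes, for the 36 tested genes coloured by step, with bars of 1 SD over 3 libraries and the line of equal levels. *Scd2* lies on the line at the top right, *Lpl*, *Mgll* and *Acacb* lie above it, and *Gpam* and *Fabp3* lie below it.

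The promoter windows of the genes past the fold threshold are shown to place them against the elements known for lipid genes. The windows run from 250 bases before to 50 after a RefSeq start on GRCm38.p6, the build of the table, and 29 of the 37 genes had one. *Scd1*, *Scd2*, *Fads1*, *Dgat1*, *Dgat2*, *Lpl*, *Fabp4* and *Fabp5* had no entry. Both strands were searched for the sterol regulatory element TCACNCCAC bound by SREBP, the palindromic E-box CACGTG, the CCAAT box, the GC box GGGCGG, the AP-1 site TGANTCA bound by JUN and FOS, and the PPAR response element as 2 copies of AGGTCA spaced by 1 base. No searched word is part of another. Capitals mark every match, positions of matches are counted from the start site at 0, and a match is a word in the sequence and not a binding site. The table places the whole genes at chr19:55069734-55099451 (*Gpam*), chr6:88724412-88828360 (*Mgll*), chr5:114146535-114250761 (*Acacb*) and chr4:130308595-130315463 (*Fabp3*). In order, the windows are *Gpam* (chr19:55099428-55099727, minus strand, GC box at -16), *Mgll* (chr6:88724162-88724461, plus strand, E-box at -44 and GC box at 3), *Acacb* (chr5:114165268-114165567, plus strand, CCAAT box at -87) and *Fabp3* (chr4:130308488-130308787, plus strand, no match).
Gpam: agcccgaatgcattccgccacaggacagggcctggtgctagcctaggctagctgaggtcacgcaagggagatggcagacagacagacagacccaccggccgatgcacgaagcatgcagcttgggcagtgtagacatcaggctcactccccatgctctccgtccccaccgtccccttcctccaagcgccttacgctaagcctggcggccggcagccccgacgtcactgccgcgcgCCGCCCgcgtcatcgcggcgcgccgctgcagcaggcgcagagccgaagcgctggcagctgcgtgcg
Mgll: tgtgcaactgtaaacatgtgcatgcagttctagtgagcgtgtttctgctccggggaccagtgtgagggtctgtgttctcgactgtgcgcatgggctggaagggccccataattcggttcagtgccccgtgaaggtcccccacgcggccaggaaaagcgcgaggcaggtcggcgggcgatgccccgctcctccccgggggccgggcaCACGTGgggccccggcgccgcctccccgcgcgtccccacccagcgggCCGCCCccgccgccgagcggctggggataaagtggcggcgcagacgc
Acacb: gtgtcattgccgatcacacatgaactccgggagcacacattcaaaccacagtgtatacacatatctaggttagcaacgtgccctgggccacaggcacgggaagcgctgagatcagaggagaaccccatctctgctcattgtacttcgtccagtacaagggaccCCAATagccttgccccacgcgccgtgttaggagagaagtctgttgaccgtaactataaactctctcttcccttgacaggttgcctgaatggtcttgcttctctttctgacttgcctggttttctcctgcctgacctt
Fabp3: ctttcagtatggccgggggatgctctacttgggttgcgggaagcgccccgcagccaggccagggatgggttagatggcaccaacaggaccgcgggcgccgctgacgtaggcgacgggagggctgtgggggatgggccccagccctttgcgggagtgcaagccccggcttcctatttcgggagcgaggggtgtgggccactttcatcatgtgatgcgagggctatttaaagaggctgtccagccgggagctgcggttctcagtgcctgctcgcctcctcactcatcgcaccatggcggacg

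*Gpam* and *Mgll* each have another RefSeq window, 27787 and 292 bases from the start of the gene in the table, and the *Acacb* window lies 18983 bases inside its span. Among the 29 genes with a window, 20 held a GC box (69.0%, against 38.2% of the 27025 genes with a window) and 14 a CCAAT box (48.3% against 41.1%). The GC box holds only G and C, and these shares are not adjusted for GC content. The median GC content was 52.7% over all windows, and those printed above held 68.0% (*Gpam*), 70.0% (*Mgll*), 51.7% (*Acacb*) and 65.0% (*Fabp3*). The E-box was found in *Elovl5*, *Plin2*, *Lipe* and *Mgll* (13.8% against 8.09%), and the AP-1 site in *Acadvl* (3.45% against 8.97%). The PPAR response element was in none of the 29, and in 0.0481% of all genes. The sterol regulatory element was in *Ehhadh* and *Acsl1* (6.90% against 1.44%). For *Acsl1*, which was higher in *Amh-pa1*-/- cells, it lies at -76 of the window of an inner start, 19929 bases from the first, between CCAAT boxes at -172 and -49 (chr8:46490716-46491015, plus strand).
Acsl1: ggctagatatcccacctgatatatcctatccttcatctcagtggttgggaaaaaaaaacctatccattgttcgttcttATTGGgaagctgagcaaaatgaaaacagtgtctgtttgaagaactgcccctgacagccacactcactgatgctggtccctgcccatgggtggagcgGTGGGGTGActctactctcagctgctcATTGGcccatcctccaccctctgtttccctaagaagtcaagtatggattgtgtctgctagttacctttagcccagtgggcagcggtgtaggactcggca

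*Gpam* encodes the mitochondrial glycerol-3-phosphate acyltransferase, which takes the first step of glycerolipid synthesis. Its normalized counts were 1219.7, 1409 and 1302 in control replicates 1, 2 and 3 and 643, 658 and 600.2 in knockout replicates 1, 2 and 3. The groups stood far apart and each was tight. The log2 fold change was -1.05 (standard error 0.076, edgeR, adjusted p = 0.000248), or 48.4% of the control level. *Gpam* passed the adjusted p in every fit that left out 1 library, while without *Pa1*F/F replicate 2 its log2 fold change of -0.99 fell short of the fold threshold.

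The later acyltransferases did not pass the test. *Agpat2*, which adds the next acyl chain, had a log2 fold change of 0.25. *Dgat1* and *Dgat2*, which complete the triglyceride, had -0.12 and 0.18. The adjusted p-values (edgeR) were 0.0776, 0.355 and 0.566, and *Dgat2* rested on 28.2 to 44.9 normalized counts per library.

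*Mgll*, the monoacylglycerol lipase that frees the last fatty acid of a glyceride, showed the largest fitted rise of the 36 genes. Its normalized counts were 182, 116 and 150.0 in the controls and 388, 403 and 573 in the knockout. Every knockout library held more than every control library, and *Amh-pa1*-/- replicate 3 was the highest. The log2 fold change was 1.60 (standard error 0.22, edgeR, adjusted p = 0.00223), a 3.04-fold higher level, and it stayed between 1.40 and 1.78 with 1 library left out.

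*Pnpla2*, the triglyceride lipase that starts lipolysis, had a log2 fold change of 0.23 (edgeR, adjusted p = 0.0931) and passed only without *Amh-pa1*-/- replicate 3 (0.30, adjusted p = 0.0142). *Lipe*, the hormone-sensitive lipase, had 40.1 to 82.3 normalized counts and a log2 fold change of -0.43 that did not pass (edgeR, adjusted p = 0.223). *Plin3*, a perilipin found on nascent droplets, fell from 1795 ± 86.6 to 1476 ± 87.9 normalized counts (SD, n = 3 each), or -0.28 on the log2 scale (edgeR, adjusted p = 0.0164), and did not pass without *Pa1*F/F replicate 1 or 3 (adjusted p = 0.0763 and 0.0654).

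*Plin2*, the general marker of lipid droplets, had 812, 793 and 909 normalized counts in the controls and 739, 735 and 413 in the knockout. *Amh-pa1*-/- replicates 1 and 2 stood just under the controls and replicate 3 well under them. The difference did not pass the test (-0.41, standard error 0.22, edgeR, adjusted p = 0.181).

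*Acacb* encodes acetyl-CoA carboxylase 2, whose malonyl-CoA is known to block CPT1 at the mitochondrial surface. It had 109.6, 252 and 163 normalized counts in the controls and 431, 406 and 561 in the knockout. The groups did not overlap, though *Pa1*F/F replicate 2 held more than the other two controls. The log2 fold change was 1.42 (standard error 0.30, edgeR, adjusted p = 0.0109) and lay between 1.17 and 1.78 with 1 library left out.

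None of the cytosolic enzymes of synthesis passed as higher. *Acly*, which makes cytosolic acetyl-CoA from citrate, had 6350.3, 6944 and 6298 normalized counts in the controls and 5509, 5601 and 4675 in the knockout, -0.31 on the log2 scale (edgeR, adjusted p = 0.0310). *Acaca*, the cytosolic acetyl-CoA carboxylase 1, fell by a like amount, from 2759 ± 254 to 2230.2 ± 205 normalized counts (SD, n = 3 each; log2 fold change -0.31, edgeR, adjusted p = 0.0418). Neither passed when any library but *Amh-pa1*-/- replicate 3 was left out (adjusted p up to 0.0815 for *Acly* and 0.107 for *Acaca*).

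*Fasn*, the fatty acid synthase, had 11058, 11677 and 11272 normalized counts in the controls and 15231, 15608 and 10781 in the knockout. *Amh-pa1*-/- replicates 1 and 2 lay above the controls and replicate 3 below them, and the difference did not pass (0.29, edgeR, adjusted p = 0.156). Without replicate 3 it passed at 0.45 (adjusted p = 0.000417).

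**Figure D4:**
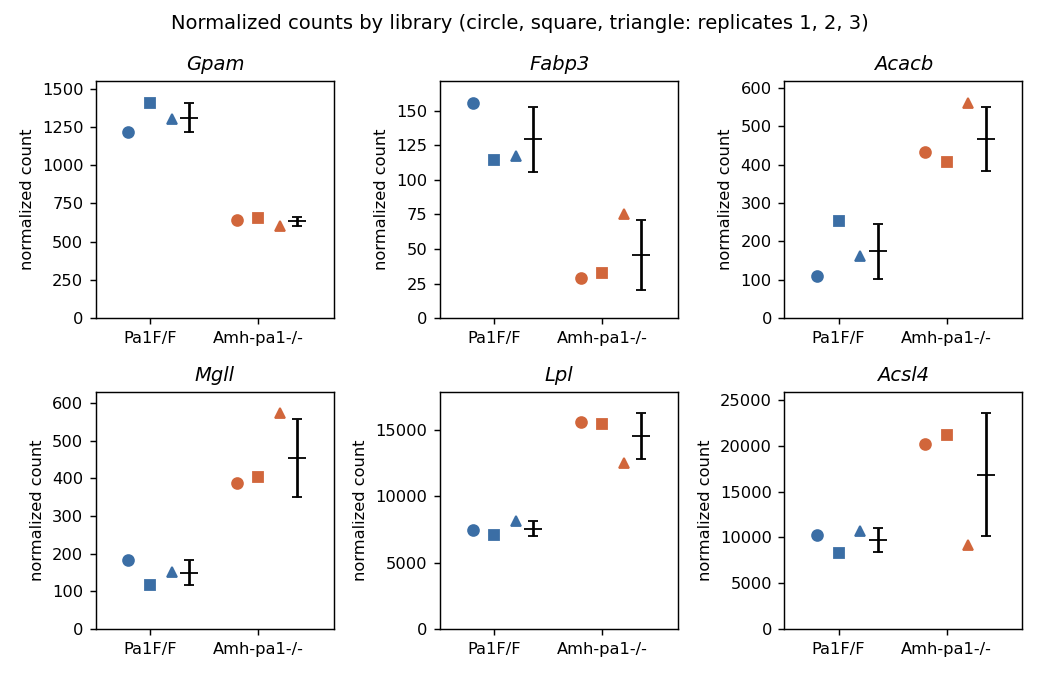
Normalized counts of 6 genes in each library (vertical axes from 0), with circles, squares and triangles for replicates 1, 2 and 3 and black bars for the mean and SD of each genotype. The genotypes do not overlap for *Gpam*, *Fabp3*, *Acacb*, *Mgll* and *Lpl*, and *Amh-pa1*-/- replicate 3 of *Acsl4* lies among the controls.

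Among desaturases, *Scd1* had 6246, 4955 and 6453 normalized counts in the controls and 4343, 4243 and 2549 in the knockout. It was lower in all knockout libraries, least so in replicates 1 and 2. Its log2 fold change of -0.67 (standard error 0.21) passed narrowly (edgeR, adjusted p = 0.0484), and with 1 library left out it passed only without *Amh-pa1*-/- replicate 3. *Scd2*, its neighbour on chromosome 19 and the more abundant transcript, differed by -0.011 (edgeR, adjusted p = 0.925), with 31580.3, 30648 and 32649 normalized counts in the controls and 30864, 31219 and 32056 in the knockout. *Fads1* and *Fads2*, the delta-5 and delta-6 desaturases of polyunsaturated fatty acids, did not pass (-0.21 and 0.052, edgeR, adjusted p = 0.272 and 0.634).

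Of the elongases, *Elovl6*, which lengthens saturated chains from palmitate, had 238, 259 and 302 normalized counts in the controls and 522, 505 and 357 in the knockout. *Amh-pa1*-/- replicate 3 lay between the controls and the other two knockout libraries. The log2 fold change was 0.79 (standard error 0.17, edgeR, adjusted p = 0.0121), and without *Pa1*F/F replicate 1 the adjusted p was 0.0517. *Elovl5*, which lengthens polyunsaturated chains, rose by 0.17 on the log2 scale (edgeR, adjusted p = 0.0366), and with 1 library left out it passed only without *Amh-pa1*-/- replicate 3. *Elovl1*, of very long chains, did not pass (0.14, edgeR, adjusted p = 0.164). Its span overlaps that of *Cdc20* on the other strand.

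The acyl-CoA synthetases activate fatty acids for every later use, and of the 4 long-chain genes *Acsl3* and *Acsl1* rose while *Acsl4* and *Acsl5* did not pass. *Acsl3*, the droplet-associated form, had 713, 632 and 616 normalized counts in the controls and 911, 990.2 and 996 in the knockout, 0.56 on the log2 scale (standard error 0.081, edgeR, adjusted p = 0.00281). Its groups did not overlap and it passed with any library left out. *Utp14b*, which overlaps the span of *Acsl3* on the same strand, also rose, by 0.72 on the log2 scale. How reads of the overlap were counted is not given in the sources used here. *Acsl1*, the main form of oxidative and fat-storing tissues, rose from 248, 231 and 266 to 327, 349 and 321 normalized counts (log2 fold change 0.42, edgeR, adjusted p = 0.0142), and without *Pa1*F/F replicate 1 the adjusted p was 0.0540.

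*Acsl4* prefers arachidonic acid and was the most abundant of the listed *Acsl* genes by FPKM. It had 10212, 8266 and 10685 normalized counts in the controls and 20233, 21172 and 9140.0 in the knockout. *Amh-pa1*-/- replicates 1 and 2 held 213% of the control mean and replicate 3 held 94.0%. The difference over all libraries did not pass (0.79, standard error 0.31, edgeR, adjusted p = 0.0851) and without replicate 3 it did (1.09, adjusted p = 0.000298), as it did on all libraries with DESeq2's Wald test and with no filter on low counts (adjusted p = 0.0168 and 0.0307). *Acsl5* also had its lowest knockout value in replicate 3, with 1684, 1559 and 1153 normalized counts against 1103, 1183 and 1129.6 in controls (0.36, edgeR, adjusted p = 0.0781; without replicate 3 0.51, adjusted p = 0.000687; with no filter on low counts adjusted p = 0.0412).

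In the carnitine shuttle, *Cpt1a*, the rate-limiting entry enzyme, had 5253, 4807 and 5254 normalized counts in the controls and 3697, 3935 and 2974 in the knockout. All knockout libraries lay below all controls, replicate 3 lowest. Its log2 fold change was -0.53 (standard error 0.11, edgeR, adjusted p = 0.0101), or 69.2% of control, and it passed with any library left out. *Cpt1c*, a form best known from neurons, and *Cpt2*, the inner-membrane enzyme, did not pass (-0.25 and -0.13, edgeR, adjusted p = 0.0955 and 0.354).

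The log2 fold changes of the beta-oxidation genes lay between -0.42 and 0.36. *Acadl*, the long-chain acyl-CoA dehydrogenase, rose from 1931 ± 61.4 to 2487 ± 64.8 normalized counts (SD, n = 3 each), or 0.36 on the log2 scale (standard error 0.05, edgeR, adjusted p = 0.00226). *Hadhb* and *Hadha* encode the beta and alpha subunits of the mitochondrial trifunctional protein. *Hadhb* fell from 1599.8 ± 60.4 to 1196 ± 32.4 normalized counts (SD, n = 3 each), -0.42 on the log2 scale (standard error 0.054, edgeR, adjusted p = 0.00187). *Hadha* fell from 3078 ± 30.5 to 2728 ± 112 normalized counts (SD, n = 3 each), -0.17 on the log2 scale (standard error 0.051, edgeR, adjusted p = 0.0358), and with 1 library left out it passed only without *Amh-pa1*-/- replicate 3 (adjusted p otherwise 0.0920 to 0.150). *Acadvl*, *Acadm* and the peroxisomal *Ehhadh* did not pass (-0.14, -0.13 and 0.20, edgeR, adjusted p = 0.263, 0.324 and 0.405). *Acadvl* overlaps *Dvl2* on the other strand, which fell by 0.26 on the log2 scale.

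*Hadha* and *Hadhb*, both lower, start 86 bases apart on chromosome 5 by the deposited positions and are read in opposite directions. Their windows use RefSeq starts, 182 (*Hadha*) and 5 (*Hadhb*) bases from those positions, and 228 bases of the windows are the same DNA. The *Hadhb* window (chr5:30155003-30155302, plus strand) holds GC boxes at -90, -25, 10 and 24, of which only that at -90 lies wholly within the shared stretch.
Hadhb: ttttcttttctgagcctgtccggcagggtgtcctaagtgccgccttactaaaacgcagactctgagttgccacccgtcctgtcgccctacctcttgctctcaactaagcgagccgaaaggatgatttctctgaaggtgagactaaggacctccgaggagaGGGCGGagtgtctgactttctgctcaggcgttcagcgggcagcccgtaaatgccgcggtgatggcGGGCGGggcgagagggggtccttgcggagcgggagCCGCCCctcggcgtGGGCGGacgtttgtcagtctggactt

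*Lpl* encodes lipoprotein lipase, which frees fatty acids from circulating lipoproteins. Its normalized counts were 7471, 7093 and 8162 in the controls and 15639, 15444 and 12528 in the knockout. The knockout libraries all lay well above the controls, replicate 3 least. The log2 fold change was 0.94 (standard error 0.11, edgeR, adjusted p = 0.00119), a 1.92-fold higher level, just under the fold threshold, and 1.04 without *Amh-pa1*-/- replicate 3.

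The fatty acid-binding proteins carry fatty acids through the cytosol. *Fabp3*, the heart form, had 156, 114 and 117 normalized counts in the controls and 29.3, 32.7 and 75.1 in the knockout. Replicates 1 and 2 of the knockout held 24.0% of the control mean and replicate 3 held 58.2%. The log2 fold change was -1.49 (standard error 0.37, edgeR, adjusted p = 0.0205), -2.06 without *Amh-pa1*-/- replicate 3. Without *Pa1*F/F replicate 1 or 3 or *Amh-pa1*-/- replicate 1 or 2 it did not pass (adjusted p = 0.0746, 0.0533, 0.0603 and 0.0684). Its span overlaps *Zcchc17* on the other strand, which rose by 0.83 on the log2 scale.

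*Fabp5*, the epidermal form, had 287, 363 and 316 normalized counts in the controls and 124, 132 and 279 in the knockout. As for *Fabp3*, replicate 3 stood nearest to the controls. The difference did not pass over all libraries (-0.85, standard error 0.31, edgeR, adjusted p = 0.0752) and passed without replicate 3 (-1.33, adjusted p = 0.000320), as it did on all libraries with limma-voom, DESeq2's Wald test and no filter on low counts (adjusted p = 0.0393, 0.0255 and 0.0429). *Fabp4*, the adipocyte form, had 0, 1 and 3 counts in *Pa1*F/F and 6, 1 and 3 counts in *Amh-pa1*-/- replicates, too few to be tested, and no fold is given.

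Transcripts listed as markers of other testis cells differed with the genotype. Leydig cells store lipid, and their list of 9 markers, 4 of them tested, had 3 lower and none higher, with a summed level of 838 to 933 CPM in *Pa1*F/F and 177 to 333 CPM in *Amh-pa1*-/- cells. *Star* and *Cyp11a1* made up most of that sum, while *Insl3* had at most 2 counts and *Cyp17a1* at most 3. Of 14 macrophage markers 11 were tested and 9 were lower, with sums, mostly of *Mrc1* which did not pass, from 133 to 145 CPM and from 77.4 to 94.7 CPM. Endothelial markers (12, of which 4 were tested, 2 lower and 1 higher) summed to 117 to 123 CPM and 64.5 to 102 CPM, with *Erg* and *Cldn5* at no more than 1 count. Peritubular myoid markers (7, of which 6 were tested and 2, *Acta2* and *Smtn*, were higher) summed to 250.3 to 319.7 CPM in *Pa1*F/F and 913 to 1341 CPM in *Amh-pa1*-/- cells, highest in replicate 3. *Acta2* reached 15353 counts and *Myh11*, the next, 1602, while *Tagln* had at most 14 and was not tested. Of 10 adipocyte markers 7 were in the table and 1 was tested, which did not pass, and their sum stayed at or below 1.71 CPM. Of 9 spermatogonia markers 4 were tested and 3 were lower (sums from 193 to 222 and from 104 to 199.96 CPM, mostly of *Uchl1* which did not pass), and those of spermatocytes and spermatids summed to 6.54 CPM at most. The part of these cells in *Lpl*, *Fabp3*, *Fabp5* and the other genes was not tested. Bulk RNA does not show which cells a transcript came from, and fewer cells of a type and less RNA per cell cannot be told apart.

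Beyond the 37 genes, 6 lists of pathway genes held 146 symbols, of which 117 were tested. Of these 27 were lower and 23 higher, 42.7% in all against 35.3% of all tested genes (17.1% lower and 18.2% higher), with a median log2 fold change of -0.01 against 0.002 for all tested genes. Past the fold threshold 11 were lower and 5 higher, where the background is 6.56% lower and 5.44% higher.

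Of 13 tested uptake and binding genes 5 were lower and 3 higher, 61.5% against 35.3% of all tested genes, with a median of 0.037. *Cd36*, the scavenger receptor for long-chain fatty acids, had 297, 98.8 and 332 normalized counts in the controls and 29.3, 25.9 and 11.0 in the knockout, and fell by 3.45 on the log2 scale (edgeR, adjusted p = 0.00416). *Pa1*F/F replicate 2 held less than the other two controls and still more than any knockout library. Macrophages and endothelial cells use *Cd36* too, and the sums of their markers given above were also lower by genotype. Library by library the endothelial sum ran apart from *Cd36*. It was highest among controls in replicate 2 (123 CPM) and among knockouts in replicate 3 (102 CPM), the libraries with the least *Cd36* of each genotype. The macrophage sum was lowest in *Amh-pa1*-/- replicate 3 (77.4 CPM) and in *Pa1*F/F replicate 2 (136 CPM) lay between the other controls. The part of these cells in the fall of *Cd36* was not tested. *Slc27a3*, an acyl-CoA synthetase of the fatty acid transport family, had 1181, 1031 and 969 against 129.8, 126 and 225 normalized counts (log2 fold change -2.72, edgeR, adjusted p = 0.000452). The lipoprotein receptor *Vldlr* went from 401 ± 68.6 to 108 ± 18.8 normalized counts (SD, n = 3 each; -1.90, edgeR, adjusted p = 0.000651). *Angptl4*, a secreted inhibitor of lipoprotein lipase, was lower by less, -0.79 (edgeR, adjusted p = 0.000687). *Slc27a6* and *Slc27a4* rose, with log2 fold changes of 0.34 and 0.36.

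Among 19 tested glycerolipid and droplet genes 5 were lower and 5 higher, 52.6% against 35.3% (median 0.013). *Gpat3*, an endoplasmic reticulum enzyme of the same step as *Gpam*, rose from 15.4, 11.6 and 14.7 to 55.6, 46.2 and 30.1 normalized counts (1.65, edgeR, adjusted p = 0.00674), a low level beside *Gpat4*, which rose by 0.21 with 1335 to 1633 normalized counts. *G0s2*, the inhibitor of the lipase encoded by *Pnpla2*, fell from 67.1, 51.3 and 69.2 to 22.5, 24.8 and 17.0 normalized counts (-1.54, edgeR, adjusted p = 0.00329). *Cidea*, a droplet protein that promotes droplet fusion, had 566, 448 and 507 against 223, 248 and 57.1 normalized counts (-1.53, edgeR, adjusted p = 0.0416), with *Amh-pa1*-/- replicate 3 lowest.

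Of 24 tested genes in the list of further synthesis, elongation and activation genes, 8 were lower and 5 higher, 54.2% against 35.3% (median -0.028). The elongase *Elovl3* fell from 42.6, 23.2 and 36.7 normalized counts to 0.976, 0 and 3.01, with at most 3 counts in any knockout library (edgeR, adjusted p = 0.00223). *Fads6*, a member of the desaturase family, had 651, 755 and 622 against 169.8, 144 and 120.2 normalized counts (-2.22, edgeR, adjusted p = 0.000191). *Fads3*, the neighbour of *Fads1* and *Fads2*, moved the other way, with 1199.7, 1133 and 1249 against 3619, 3415 and 2548 (1.42, edgeR, adjusted p = 0.000594). *Acsl6* (1.97), *Scd3* (1.14) and *Hacd1* (1.03) were the other higher genes past the fold threshold. Of the other activating enzymes, *Acsbg1* (-0.90, edgeR, adjusted p = 0.00314), *Acsf2* (-0.90, adjusted p = 0.0383) and the acetyl-CoA synthetase *Acss2* (-0.77, adjusted p = 0.00476) fell. *Acss1* (-0.56, edgeR, adjusted p = 0.182) and *Acsf3* (-0.19, adjusted p = 0.214) did not pass. *Scd3* had 5.81 to 22.0 normalized counts and is a close relative of *Scd1* and *Scd2*, so its reads are uncertain.

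Of 20 tested mitochondrial genes 1 was lower (*Echs1*, -0.38) and 4 were higher (*Slc25a20*, the carnitine carrier, 0.29; *Crat* 0.35; *Acadsb* 0.33; *Decr1* 0.24), 25% against the background of 35.3%, and none passed the fold threshold. Of 15 tested peroxisomal genes 3 were lower (*Acaa1a* -0.66, *Pex5* -0.70 and *Ech1* -0.28) and *Scp2* was higher (0.48), 26.7% against 35.3%. The list medians were -0.024 and 0.036.

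**Figure D5:**
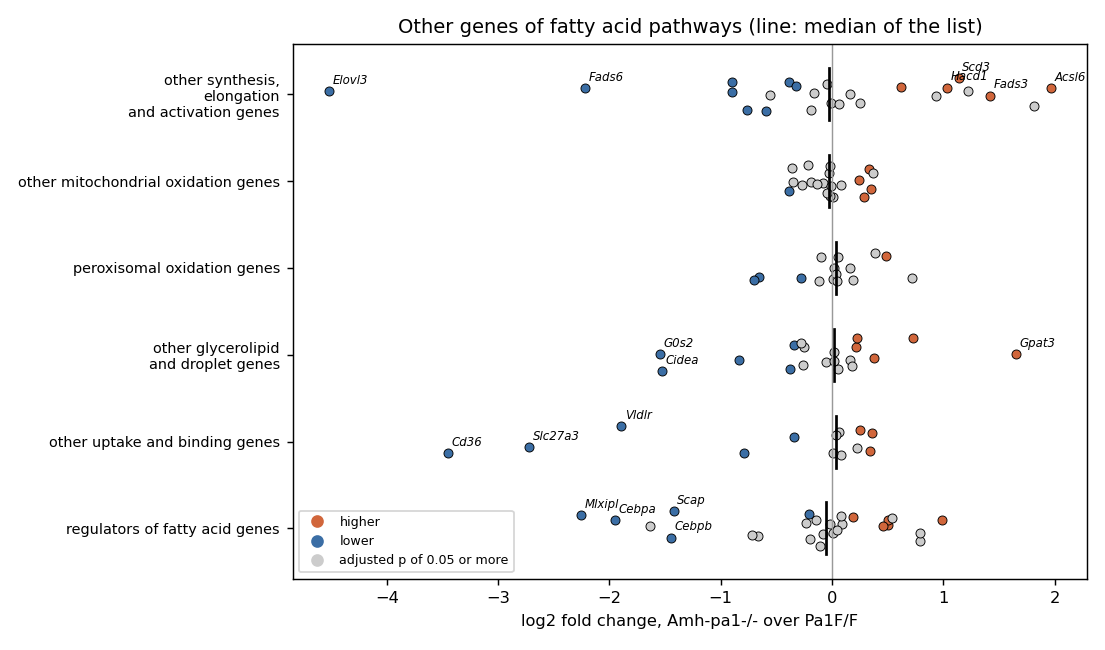
Log2 fold changes of *Amh-pa1*-/- over *Pa1*F/F cells (horizontal axis) for the 117 tested genes of 6 lists, with points spread vertically within a list for clarity and a black line at each list's median. Orange and blue points passed at an adjusted p under 0.05, grey points did not, and named genes also passed the fold threshold, *Elovl3* and *Cd36* lying farthest to the left.

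Of 26 tested regulators of these genes 5 were lower and 5 higher, 38.5%, near the background of 35.3% (median -0.054). *Scap*, the escort protein that carries SREBP to the Golgi for activation, had 3257, 3934 and 3421 normalized counts in the controls and 1418, 1278 and 1258 in the knockout. The groups were wide apart, with -1.42 on the log2 scale (standard error 0.088, edgeR, adjusted p = 0.000150). The genes of the SREBP factors rose, *Srebf1* by 0.19 on the log2 scale (edgeR, adjusted p = 0.0208) and *Srebf2* by 0.50 (edgeR, adjusted p = 0.00411), as did *Insig1* and *Insig2*, which hold SCAP in the endoplasmic reticulum (0.50 and 0.46, edgeR, adjusted p = 0.0163 and 0.00206). *Mlxipl*, the carbohydrate-response factor ChREBP, had 363, 485 and 286 against 46.9, 95.8 and 96.2 normalized counts (-2.25, edgeR, adjusted p = 0.00250).

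*Cebpa* and *Cebpb*, transcription factors of fat-storing cells, fell from 94.0 ± 33.0 to 24.3 ± 4.52 and from 55.4 ± 2.79 to 20.2 ± 1.17 normalized counts (SD, n = 3 each; -1.95 and -1.45, edgeR, adjusted p = 0.00475 and 0.00172). *Pparg* had 39.0, 10.7 and 44.0 against 14.6, 11.3 and 4.01 normalized counts and did not pass (-1.63, edgeR, adjusted p = 0.0864), and *Ppard* did not pass either (-0.086, edgeR, adjusted p = 0.548). *Ppara* and *Rxrg* were too low to be tested. *Prkab2*, a subunit of the AMP-activated kinase that inhibits acetyl-CoA carboxylases, rose by 0.98 on the log2 scale (edgeR, adjusted p = 0.000908), while *Prkaa1* differed by 0.041 and *Prkaa2* by 0.53 without passing (edgeR, adjusted p = 0.747 and 0.0522).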

How the data were processed

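RNA-seq was made from 3 *Pa1*F/F and 3 *Amh-pa1*-/- libraries, mapped to columns by the titles of the labels. The authors aligned reads to GRCm38 with HISAT2 (2.1.0 in the submitters' processing notes), counted reads per gene with HTSeq (0.6.0) and deposited the counts without normalization. The strand setting of the counting is not given in the sources used here, so genes that overlap others on either strand are uncertain. The authors' own comparison in the same table was not used: it holds a mean signal per gene, a ratio or fold change with its log2 value, and a p-value and adjusted p-value. These are as deposited. The targeted gene was not analysed here.

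Counts were filtered with edgeR's filterByExpr (minimum count 10, minimum total 15), scaled by TMM (factors 0.990 to 1.03) and tested by edgeR's quasi-likelihood F-test with Benjamini-Hochberg adjustment over 14919 genes. Normalized counts are counts over the effective library size times its mean. A shift shared by all transcripts cannot be seen after TMM scaling. The standard error is the absolute log2 fold change over the square root of F. A floor of 3 counts, which a count of 0 allows, is 2.72 to 3.38 normalized counts. Floors cover counting error only. FPKM used GENCODE vM39 canonical transcript lengths by Ensembl ID, without its coordinates. Promoters came from RefSeq. R 4.3.3, edgeR 4.0.16, limma 3.58.1, DESeq2 1.42.0 and Python 3.11.15 were used, and the steps were tested on simulated counts.

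The 37 genes, the gene lists and the tests were chosen with earlier results of these data known. Genes were named by a rule: every listed gene, with each library's counts where past both thresholds, and pathway genes past both thresholds, up to 6 per list. Pathway genes past the adjusted p alone were named after their values were seen. Alternatives were other scalings, filters and tests, the replicate number as a block, each library left out, and the close pairs of libraries summed, a setting known from an earlier analysis.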

Additional observations from a re-analysis of the deposited data

How the results depend on the processing

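Of the 14 alternative settings, scaling by library size alone or by DESeq2 size factors, limma-voom, DESeq2's Wald test, no filter on low counts and at least 10 counts in every library left the counts at 8 to 10 lower and 8 to 9 higher genes, and 2 of each past the fold threshold. *Acsl3*, *Gpam*, *Lpl* and *Mgll* kept their direction and an adjusted p under 0.05 in all 14. With 1 library left out the counts ranged from 3 to 10 lower and from 5 to 12 higher, and past the fold threshold from 1 to 3 lower and from 2 to 4 higher. The highest counts came without *Amh-pa1*-/- replicate 3 and the lowest without *Pa1*F/F replicate 1 (3 lower also without *Pa1*F/F replicate 3). With the close pairs of libraries summed, 2 libraries per genotype were left, and 1 gene was lower and 3 were higher, with 1 of each past the fold threshold. Fewer libraries enter that fit. With a fold threshold of 0.58 in place of 1, 3 genes were lower and 4 were higher. Among genes that did not pass, the log2 fold change of *Scd2* changed sign with no filter on low counts (0.013) and with the close pairs summed (0.027), and lay between -0.035 and 0.011 with 1 library left out. *Fads2* lay between -0.010 and 0.11. Over all tested genes the median moved by less than 0.1 under each scaling. The number past the adjusted p was 3450 to 6617 with 1 library left out (of 15155 to 15354 tested). It was 1382 of 15966 with the close pairs summed, against 5266 of 14919. Deviations of same-numbered libraries from their genotype means had correlations of 0.11, -0.16 and -0.18 for numbers 1, 2 and 3. With 3 libraries per genotype these cannot settle whether the numbers pair libraries, and the sources used here do not say. The highest correlation was that of *Pa1*F/F replicate 2 with *Amh-pa1*-/- replicate 3 (0.21), the libraries that stand apart in each genotype. *Pa1*F/F replicates 1 and 3 correlated with *Amh-pa1*-/- replicates 1 and 2 at 0.11 to 0.15, and the other 4 pairs were negative (-0.18 to -0.14). With the replicate number as a block 6 genes were lower and 6 higher, 2 of each past the fold threshold, and *Scd1*, *Elovl5*, *Acsl1*, *Hadha* and *Plin3* did not pass. Of all 14919 genes tested with the block 3802 passed. *Hadha* and *Elovl5* also failed in DESeq2's Wald test (adjusted p = 0.0785 and 0.0622) and without a filter (0.167 and 0.0608), and *Hadha* with library size alone (0.0650). Of the listed genes *Fabp4*, *Dgat2* and *Lipe* had the fewest reads. *Fabp4* did not enter the test for that reason, and the part of depth in the results of *Dgat2* and *Lipe* was not tested.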
